A study of Homo sapiens with 6 samples.

Results

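NRF2, encoded by NFE2L2, and 8 of its antioxidant target genes (NQO1, HMOX1, GCLC, GCLM, SRXN1, TXNRD1, AKR1C1 and AKR1B10) were examined in DU145 cells, a human cell line of metastatic, castration-resistant prostate cancer. The genes were taken by symbol from the deposited expression table, which held all 9 of them among 27381 genes. The list was drawn up with earlier results of these data known, although it was not chosen by a threshold on measured values. RNA had been sequenced from 6 libraries. The labels give 2 libraries to cells with the genotype Scramble (Scr), 2 libraries to CD24 KO cells and 2 libraries to RCC2 KO cells. CD24 is a surface glycoprotein, and RCC2 is a regulator of chromosome condensation that also acts on cell migration. Per the study's methods, DU145 cells were transfected with a plasmid carrying Cas9 and GFP, with guide RNAs against CD24 or RCC2 for the knockouts and a scrambled guide that has no target for Scr, and GFP-positive cells were sorted and expanded as clones. The knockout models were thus clonal lines of 1 parental cell line, with 2 clones per knocked-out gene, and the labels do not say which clone gave which library. No further treatment is given for any group, so Scr and the knockouts differ by their labels in genotype alone.

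NRF2 is a transcription factor that is held at a low level by KEAP1, a sensor protein that presents it to the CUL3 ubiquitin ligase for degradation. When oxidants or electrophiles modify KEAP1, NRF2 accumulates, pairs with a small MAF protein and binds antioxidant response elements near its target genes, while BACH1 competes for many of the same sites. The targets make glutathione, reduce thioredoxin, detoxify quinones and carbonyl compounds, supply NADPH and handle haem and iron. HMOX1 is strongly repressed by BACH1, and the aldo-keto reductases AKR1C1 and AKR1B10 are widely used as markers of NRF2 activity in tumours. In the prostate, aldo-keto reductases of the AKR1C family also convert steroid hormones.

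The antioxidant response element was read here as its core TGACNNNGC, where N is any base, in windows from 250 bases before to 50 bases after each RefSeq transcription start on GRCh38.p14. The table of promoters held 9 windows for 7 of the 9 genes, and HMOX1 and AKR1B10 had none. A match on either strand was present in 3 of these windows, 1 of GCLM and 2 of TXNRD1, against 13.3% of all 35116 windows. The 120 bases before the start are shown for these windows and, for comparison, for AKR1C1, the member with the largest difference between conditions. Capitals mark bases of a match, written on the strand of the gene. The 4 stretches lie at chr1:93909431-93909550 (minus strand), chr12:104215659-104215778 (plus strand), chr12:104286912-104287031 (plus strand) and chr10:4963295-4963414 (plus strand), in the order shown.
GCLM: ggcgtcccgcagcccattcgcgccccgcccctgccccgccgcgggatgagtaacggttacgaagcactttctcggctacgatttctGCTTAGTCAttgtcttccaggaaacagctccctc
TXNRD1, upstream start: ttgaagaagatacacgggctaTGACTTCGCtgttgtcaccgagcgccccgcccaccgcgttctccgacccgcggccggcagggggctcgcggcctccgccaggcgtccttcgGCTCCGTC
TXNRD1, downstream start: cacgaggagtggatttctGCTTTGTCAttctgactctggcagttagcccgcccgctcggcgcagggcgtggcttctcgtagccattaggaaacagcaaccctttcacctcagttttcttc
AKR1C1: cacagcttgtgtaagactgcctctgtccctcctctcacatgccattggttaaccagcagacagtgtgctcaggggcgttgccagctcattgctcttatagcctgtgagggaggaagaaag
In GCLM the match begins 34 bases before the start. In TXNRD1 the matches begin 99 and 8 bases before the upstream start, the second of them ending 1 base beyond the stretch shown, and 102 bases before the downstream start. AKR1C1 has no match in its window. These matches describe letters near the start, and a window of this size leaves out elements that lie farther away.

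The table holds 1 value of FPKM, a count of fragments corrected for the length of the transcript and the size of the library, for each gene and condition. Replicate libraries cannot be separated, so the differences below carry no SD, interval or test and have no replicate check. The RCC2 KO column bears a name that is both the full description of the first RCC2 KO library and the stem of the second, so whether it combines both libraries is not known. The table gives no counts and the depth is unknown. Of the targeted genes, CD24 was at 93.2 FPKM in Scr, 309 FPKM under the CD24 KO label and 214 FPKM under the RCC2 KO label, and RCC2 was at 37.8, 14.2 and 41.8 FPKM in the same order. The row of CD24 lies on chromosome Y, from 21034387 to 21438350, where a near-identical copy of the gene is known, so its value is uncertain. Neither RNA was lower than in Scr in its own knockout, so each direction below rests on labels that the targeted RNA does not bear out. These RNA values measure neither the edit nor the protein. The study reports that its DU145 knockout clones were checked by Sanger sequencing, Western blot and flow cytometry. RCC2 was lower than in Scr under the CD24 KO label alone, and CD24 was higher than in Scr under both knockout labels. With the knockout labels exchanged, RCC2 RNA would thus be lower in its own knockout and CD24 RNA would still be higher, and what is given below for CD24 KO would belong to RCC2 KO. Such an exchange was not tested. The epithelial markers KRT8, KRT18, EPCAM and CDH1 were at 23.7 FPKM or more in every column, with KRT8 and KRT18 lower in the libraries labelled CD24 KO by log2 differences of -1.17 and -1.05, EPCAM lower by -0.38 and CDH1 higher by 0.89. The prostate marker KLK3 was listed at 0 in all 3 columns. The part of these lineage genes in the differences below was not tested. Fibroblast, leukocyte and endothelial markers stayed at 0.678 FPKM or less, with PTPRC listed at 0 throughout.

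Differences between conditions are given as differences of log2(FPKM + 1) over the 12822 genes with at least 1 FPKM in at least 1 column, and a gene is called at least 2-fold different when this difference reaches 1 in either direction. The added 1 understates the difference of genes with low values. All 9 genes passed the filter, but AKR1B10 passed only through its value in the libraries labelled CD24 KO, so it could pass only by being high there. The pathway's genes covered a wide range of levels. TXNRD1 and NQO1 were among the most abundant RNAs of the cells, AKR1C1 and AKR1B10 were near or below 1 FPKM in Scr, and the other 5 genes lay between 33.1 and 188 FPKM in Scr. FPKM are scaled to transcript length, so these levels can be set side by side.

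**Figure D1:**
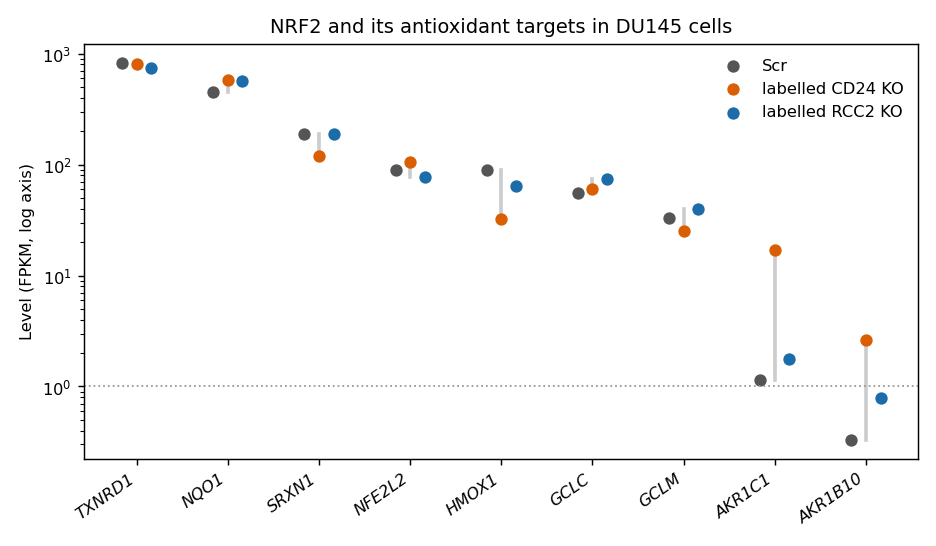
Level of each of the 9 genes in FPKM (log axis) in Scr, in the libraries labelled CD24 KO and in those labelled RCC2 KO, 1 point per condition, ordered by the level in Scr. Grey bars span the lowest to the highest of the 3 values and the dotted line marks 1 FPKM. The points of TXNRD1 nearly coincide, while AKR1C1 spans 1.14 to 17.0 FPKM and AKR1B10 0.330 to 2.61 FPKM.

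NFE2L2, the RNA of the transcription factor itself, was at 90.0 FPKM in Scr, 106 FPKM under the CD24 KO label and 77.2 FPKM under the RCC2 KO label. Its log2 differences from Scr were 0.23 and -0.22, and it stayed in the top 8.17% of the genes compared in every column. NRF2 is regulated mainly through the stability of its protein, which these data do not measure. The table, read as hg19, places NFE2L2 on chromosome 2 from 178095031 to 178129859.

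NQO1, which reduces quinones by transferring a pair of electrons from NADPH or NADH, was at 450 FPKM in Scr, 577 FPKM under the CD24 KO label and 570.2 FPKM under the RCC2 KO label. It was thus higher in both knockouts than in Scr, by log2 differences of 0.36 and 0.34, and nearly equal between the knockouts, with a log2 difference of -0.02. Both comparisons use the same Scr value. NQO1 ranked in the top 0.733% of genes in Scr. It lies on chromosome 16 from 69743304 to 69760571.

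HMOX1, the inducible enzyme that breaks down haem to biliverdin, iron and carbon monoxide, was at 88.7 FPKM in Scr, 32.3 FPKM under the CD24 KO label and 64.6 FPKM under the RCC2 KO label. Scr was the highest column and CD24 KO the lowest. The log2 difference of CD24 KO from Scr was -1.43, and only 0.803% of the genes compared had a difference as low. Without the added 1, the Scr value was 2.75 times the value in the libraries labelled CD24 KO. For the libraries labelled RCC2 KO, the log2 difference from Scr was -0.45. In RNA from whole cultures, fewer cells that express a gene and less of its RNA per cell cannot be told apart. HMOX1 lies on chromosome 22 from 35777060 to 35790207.

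GCLC and GCLM encode the catalytic and the modifier subunit of glutamate-cysteine ligase, the rate-limiting enzyme of glutathione synthesis. GCLC was at 55.2 FPKM in Scr, 60.0 FPKM under the CD24 KO label and 74.0 FPKM under the RCC2 KO label. GCLM was at 33.1, 25.3 and 39.5 FPKM in the same order. Both subunits were highest in the libraries labelled RCC2 KO, with log2 differences from Scr of 0.42 for GCLC and 0.25 for GCLM. In the libraries labelled CD24 KO the subunits lay on opposite sides of Scr, at 0.12 and -0.37, and the ratio of GCLC to GCLM, 1.67 in Scr, was 2.37 there and 1.88 in the libraries labelled RCC2 KO. GCLC lies on chromosome 6 from 53362140 to 53409927 and GCLM on chromosome 1 from 94350756 to 94375154.

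SRXN1, sulfiredoxin, repairs overoxidized peroxiredoxins, and TXNRD1 is the cytosolic reductase that keeps thioredoxin reduced. SRXN1 was at 187.9 FPKM in Scr, 119 FPKM under the CD24 KO label and 188 FPKM under the RCC2 KO label. The log2 differences from Scr were -0.66 and 0.00, so that CD24 KO alone stood away from the other columns. TXNRD1, the most abundant of the 9 RNAs, was at 828, 809 and 741 FPKM. Its log2 differences from Scr were -0.03 and -0.16, and it stayed in the top 0.374% of genes in every column. SRXN1 lies on chromosome 20 from 627268 to 634014 and TXNRD1 on chromosome 12 from 104609557 to 104744085, where it overlaps EID3. In GENCODE 29, 84.6% of the 75-base stretches of the coding SRXN1 transcripts also occur in AL121758.1, a gene model without a row of its own in the table.

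AKR1C1, which reduces ketones and aldehydes and inactivates progesterone, was at 1.14 FPKM in Scr, 17.0 FPKM under the CD24 KO label and 1.76 FPKM under the RCC2 KO label. CD24 KO stood far above the other columns, with a log2 difference of 3.07 from Scr that was the 19th highest of the 12822 genes compared. The ratio of the FPKM values themselves was 14.9. AKR1B10, which reduces retinal and reactive aldehydes, was at 0.330, 2.61 and 0.788 FPKM. It was also highest in the libraries labelled CD24 KO, with a log2 difference of 1.44, but at a level that 82.7% of the genes compared reached or passed there. Against Scr, the log2 differences of the libraries labelled RCC2 KO were 0.37 for AKR1C1 and 0.43 for AKR1B10. AKR1C1 lies on chromosome 10 from 5005454 to 5020158 and AKR1B10 on chromosome 7 from 134212344 to 134226166.

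Of the 9 genes, 2 genes (AKR1C1 and AKR1B10) were at least 2-fold higher in the libraries labelled CD24 KO than in Scr, against 2.67% of all genes compared. AKR1B10 passed the filter only through its CD24 KO value, so it could be counted only by being high there. At least 2-fold lower was 1 gene (HMOX1), against 3.03%. The remaining genes included 3 above Scr (NFE2L2, NQO1 and GCLC) and 3 below (GCLM, SRXN1 and TXNRD1). The median log2 difference was 0.12, beside -0.03 over all genes compared. With a 1.5-fold minimum, 2 genes were higher and 2 genes (HMOX1 and SRXN1) lower, against 9.55% and 11.6% of all genes. Without AKR1C1 and AKR1B10 the median was -0.03. The members thus lay on both sides of Scr, with the aldo-keto reductases at one end and HMOX1 at the other.

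In the libraries labelled RCC2 KO, 0 of the 9 genes were at least 2-fold higher than in Scr and 0 were at least 2-fold lower, against 0.406% and 0.796% of all genes compared, and with 1.5-fold as the minimum the members' counts were also 0. At least 1.5-fold higher and lower were 1.45% and 3.82% of all genes. The log2 differences lay between -0.45 (HMOX1) and 0.43 (AKR1B10), with 6 genes above Scr and 3 below. Their median was 0.25, beside 0.00 over all genes compared, and without AKR1C1 and AKR1B10 it was 0.0014.

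Set directly against each other, which leaves out the shared Scr values, the libraries labelled RCC2 KO had 2 of the 9 genes (AKR1C1 and AKR1B10) at least 2-fold lower than those labelled CD24 KO, by log2 differences of -2.70 and -1.01, against 4.3% of all genes compared. Here too, AKR1B10 could be counted only by being high in CD24 KO. None of the 9 genes was at least 2-fold higher in RCC2 KO, against 4.02% of all genes. HMOX1 came nearest, with a log2 difference of 0.98, followed by SRXN1 at 0.66 and GCLM at 0.62, and these 3 genes were at least 1.5-fold higher, against 13.8% of all genes. At least 1.5-fold lower were 2 genes, against 14.1%. The median over the 9 genes was -0.02, as was the difference of NQO1.

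**Figure D2:**
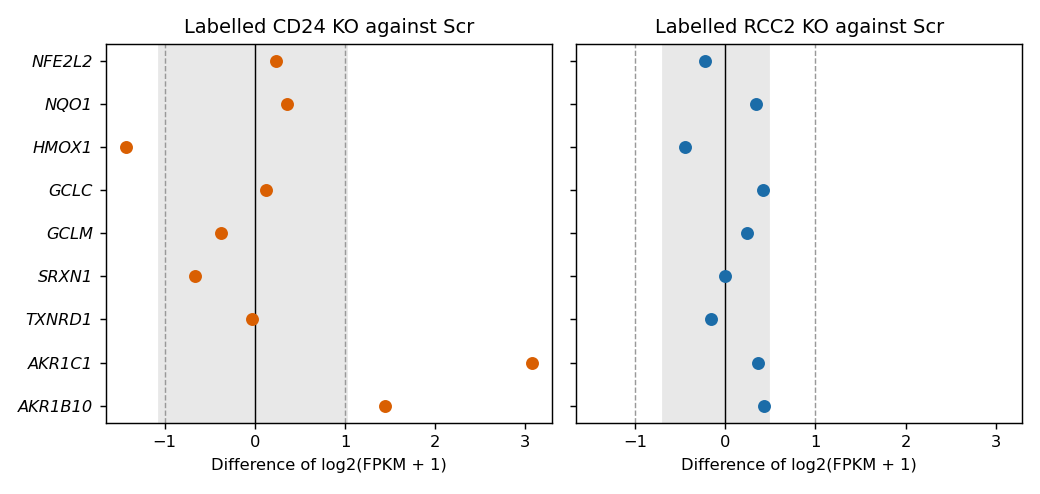
Difference of log2(FPKM + 1) from Scr for each of the 9 genes in the libraries labelled CD24 KO (left) and RCC2 KO (right), 1 point per gene. Grey bands hold the central 95% of the 12822 genes compared and dashed lines mark a 2-fold difference. AKR1C1 (3.07), AKR1B10 (1.44) and HMOX1 (-1.43) lie outside the band on the left, and all 9 points lie inside it on the right.

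AKR1C1 belongs to a cluster of related genes on chromosome 10, and its neighbours AKR1C2 and AKR1C3 had their highest values in the same column. AKR1C2, a reductase of dihydrotestosterone, was at 0.584 FPKM in Scr, 4.12 FPKM for CD24 KO and 0.675 FPKM for RCC2 KO, and like AKR1B10 it passed the filter only through its value in CD24 KO. AKR1C3, which makes testosterone from androstenedione, was at 7.95, 43.9 and 6.79 FPKM in the same order and was the most abundant of the cluster. Their log2 differences of CD24 KO from Scr were 1.69 and 2.33, and those of RCC2 KO were 0.08 and -0.20. AKR1C4 was listed at 0 in all columns.
Fragments can be divided between these genes. Of the 75-base stretches of the coding AKR1C1 transcripts in GENCODE 29, 20.5% also occur in AKR1C2, and 35.4% of those of AKR1C2 occur in AKR1C1, whereas AKR1C3 shares 5.36% of its stretches with AKR1C2. The summed level of the 3 genes does not depend on that division in the same way. It was 9.68 FPKM in Scr, 65.0 FPKM under the CD24 KO label and 9.23 FPKM under the RCC2 KO label, a ratio of 6.72 between CD24 KO and Scr. The genes around the cluster did not share this difference. Within 1 Mb on either side, 9 other genes were compared, and their log2 differences of CD24 KO from Scr lay between -0.55 (RBM17) and 0.17 (ASB13), with a median of -0.42.

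**Figure D3:**
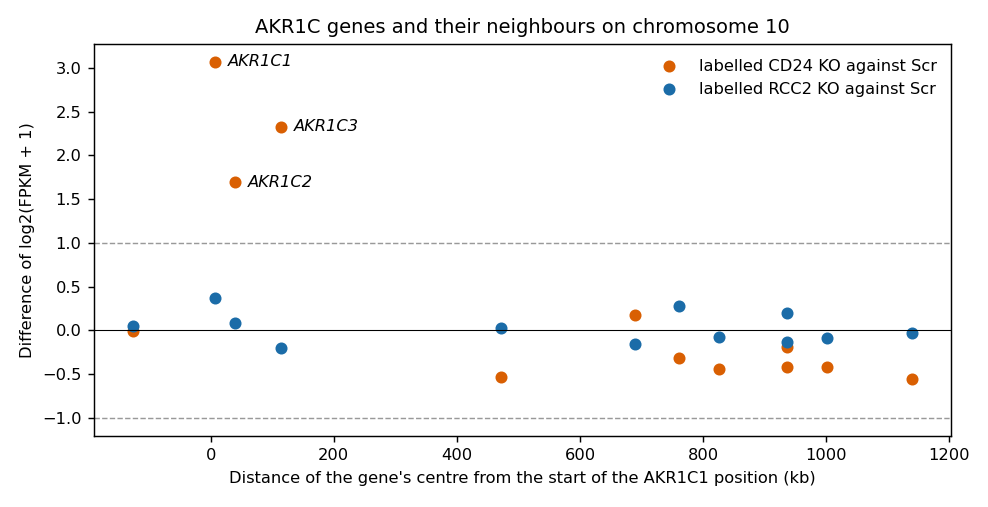
Difference of log2(FPKM + 1) from Scr for AKR1C1, AKR1C2, AKR1C3 and the 9 other genes compared within 1 Mb, against the distance in kb of each gene's centre from the start of AKR1C1. Orange points are the libraries labelled CD24 KO, blue points those labelled RCC2 KO, and dashed lines mark a 2-fold difference. The orange points of the AKR1C genes lie between 1.69 and 3.07, above those of every neighbour shown.

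Genes that control NRF2, listed together with its relatives NFE2L1 and NFE2L3, lay on both sides of Scr. Of 11 genes compared from a list of 12 genes, 0 were at least 2-fold higher and 1 was at least 2-fold lower in the libraries labelled CD24 KO, against 2.67% and 3.03% of all genes compared, and the median log2 difference was 0.01. With a 1.5-fold minimum, 0 genes were higher and 3 genes lower, against 9.55% and 11.6% of all genes. KEAP1, the sensor that restrains NRF2, was at 7.59 FPKM in Scr, 4.46 FPKM for CD24 KO and 10.2 FPKM for RCC2 KO. The knockouts lay on opposite sides of Scr, at log2 differences of -0.66 and 0.38, with a log2 difference of 1.04 between them. RBX1, the RING subunit of the CUL3 ligase, was at 38.2, 19.2 and 33.4 FPKM, with a log2 difference of -0.95 in CD24 KO, and was named after its value was seen. BACH1, the repressor of HMOX1, was at 10.8, 12.6 and 9.80 FPKM, and MAFG, a small MAF partner, at 13.3, 15.7 and 15.4 FPKM. The gene at least 2-fold lower was NFE2L3, a relative of NFE2L2, at 29.7 FPKM in Scr and 12.7 FPKM in CD24 KO, with a log2 difference of -1.17. In the libraries labelled RCC2 KO none of the list was at least 2-fold different from Scr, and the median was -0.18. Over all genes compared, 0.406% were at least 2-fold higher and 0.796% lower there.

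The glutathione list was compared in all of its 27 genes. At least 2-fold higher in the libraries labelled CD24 KO were 2 genes and at least 2-fold lower were 0, against 2.67% and 3.03% of all genes compared, with a median log2 difference of 0.16. They were CHAC1, which degrades glutathione, at 8.78 FPKM in Scr and 19.8 FPKM in CD24 KO, and GPX2, a glutathione peroxidase named here after its value was seen, at 0.409 and 4.45 FPKM. GPX2 was at 0.689 FPKM in RCC2 KO and passed the filter only through CD24 KO, so it could be counted only by being high there. At 1.5-fold, 6 of the 27 genes were higher and 1 lower in CD24 KO, against 9.55% and 11.6% of all genes. SLC7A11, the cystine importer that feeds glutathione synthesis, was at 7.45 FPKM in Scr, 12.8 FPKM for CD24 KO and 12.1 FPKM for RCC2 KO. Like NQO1 it was higher in both knockouts against the same Scr value, by log2 differences of 0.71 and 0.64. GSR, which regenerates reduced glutathione, was at 121.7, 87.1 and 113 FPKM. GSTA4, a glutathione transferase for lipid aldehydes, was at 15.0, 26.0 and 11.5 FPKM, and was at least 2-fold lower in RCC2 KO than in CD24 KO, with a log2 difference of -1.12. Against Scr, none of the list was at least 2-fold different in RCC2 KO, and the median was -0.01. Over all genes compared, 0.406% were at least 2-fold higher and 0.796% lower there.

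Of the 14 genes of the thioredoxin list, 1 gene was at least 2-fold lower and 0 were at least 2-fold higher in each knockout. Over all genes compared, the share at least 2-fold lower was 3.03% under the CD24 KO label and 0.796% under the RCC2 KO label. The share at least 2-fold higher was 2.67% and 0.406% in the same order. The thioredoxin gene that was lower was TXNIP, the inhibitor of thioredoxin, at 82.9 FPKM in Scr, 34.7 FPKM for CD24 KO and 7.52 FPKM for RCC2 KO, whose position in the table overlaps 26 other rows. TXN, thioredoxin itself, was at 411, 268 and 436 FPKM, with a log2 difference of -0.61 in the libraries labelled CD24 KO. PRDX1, a peroxiredoxin that thioredoxin reduces, was at 598, 433 and 557 FPKM. TXN and PRDX1, like SRXN1, were lowest in CD24 KO, while the list's median was -0.17 in CD24 KO and -0.05 in RCC2 KO. The list's 1.5-fold counts in CD24 KO were 1 gene higher and 4 lower, against 9.55% and 11.6% of all genes.

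Beyond AKR1C2 and AKR1C3, no gene of the list for quinone and carbonyl reduction was at least 2-fold different from Scr. Of its 18 genes 13 were compared, 2 of them (those named) being at least 2-fold higher in CD24 KO against 2.67% of all genes. AKR1C2 could be counted only by being high there. In RCC2 KO 0 were at least 2-fold different, against 0.406% (higher) and 0.796% (lower) of all genes. At 1.5-fold, 5 of the 13 genes were higher and 1 lower in CD24 KO, against 9.55% and 11.6% of all genes. The median log2 difference was 0.43 in the libraries labelled CD24 KO, with 9 genes above Scr and 4 below, and -0.01 in those labelled RCC2 KO. Among the genes that supply NADPH, 1 of 10 genes was at least 2-fold higher in CD24 KO, against 2.67% of all genes compared. This was IDH1, isocitrate dehydrogenase of the cytosol, at 66.7 FPKM in Scr, 140 FPKM for CD24 KO and 58.4 FPKM for RCC2 KO. ME1, malic enzyme, was at 25.3 FPKM in Scr, 30.5 FPKM for CD24 KO and 29.7 FPKM for RCC2 KO. The NADPH list had 1 gene at least 1.5-fold higher and 0 lower in CD24 KO, against 9.55% and 11.6% of all genes. The median of the NADPH list was 0.08 in CD24 KO and -0.07 in RCC2 KO.

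Ferritin gave the highest levels of all genes named here. In the libraries labelled CD24 KO, 2 of the 9 genes compared from this list of 10 genes were at least 2-fold higher and 1 was at least 2-fold lower, against 2.67% and 3.03% of all genes compared, and the median was -0.37. FTH1, the heavy subunit of the iron store ferritin, was at 932 FPKM in Scr, 3036 FPKM for CD24 KO and 860 FPKM for RCC2 KO. FTL, the light subunit, was at 2714, 5458 and 2972 FPKM. Both subunits were highest in CD24 KO, with log2 differences from Scr of 1.70 and 1.01. TFRC, the receptor that takes up transferrin-bound iron, was lowest there, at 79.4 FPKM against 169 FPKM in Scr and 186 FPKM in RCC2 KO, with a log2 difference of -1.08 from Scr. Ferritin and HMOX1, which are both known as NRF2 targets, thus lay on opposite sides of Scr in the libraries labelled CD24 KO. HMOX2, the constitutive haem oxygenase, was at 28.0, 17.6 and 36.9 FPKM, with a log2 difference of 1.03 between RCC2 KO and CD24 KO. In RCC2 KO none of the list was at least 2-fold different from Scr, and the median was -0.05. Over all genes compared, 0.406% were at least 2-fold higher and 0.796% lower there. The list's 1.5-fold counts in CD24 KO were 2 genes higher and 3 lower, against 9.55% and 11.6% of all genes. FTH1 overlaps BEST1 in the table.

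The last lists held further NRF2 targets and antioxidant enzymes outside the pathway. Of 8 further targets compared, 0 were at least 2-fold different from Scr in either knockout. Among all genes compared, 2.67% were at least 2-fold higher and 3.03% lower in CD24 KO, with 0.406% and 0.796% in RCC2 KO. Under the CD24 KO label, 3 of these targets were at least 1.5-fold higher and 1 lower, against 9.55% and 11.6% of all genes. Under the RCC2 KO label, 2 were at least 1.5-fold higher and 0 lower, against 1.45% and 3.82%. The list's median log2 difference stood at 0.19 in CD24 KO and at 0.08 in RCC2 KO. The former median was 0.32 with a pseudocount of 0.1 and -0.0040 with at least 1 FPKM in every column. ABHD4, a lipase, was at 12.2 FPKM in Scr, 23.6 FPKM for CD24 KO and 11.1 FPKM for RCC2 KO, a log2 difference of -1.02 between the knockouts. Of 8 antioxidant enzymes outside the pathway, 0 were at least 2-fold different from Scr in either knockout. The 2-fold shares of all genes are those given above for the further targets. With a 1.5-fold minimum, 1 enzyme was higher and 1 lower in CD24 KO, against 9.55% and 11.6% of all genes. In RCC2 KO 0 enzymes were different, against 1.45% (higher) and 3.82% (lower). The medians were -0.22 in CD24 KO and 0.07 in RCC2 KO. SOD2, the mitochondrial superoxide dismutase, was at 134 FPKM in Scr, 262 FPKM for CD24 KO and 102 FPKM for RCC2 KO, with a log2 difference of 0.96 between CD24 KO and Scr.

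**Figure D4:**
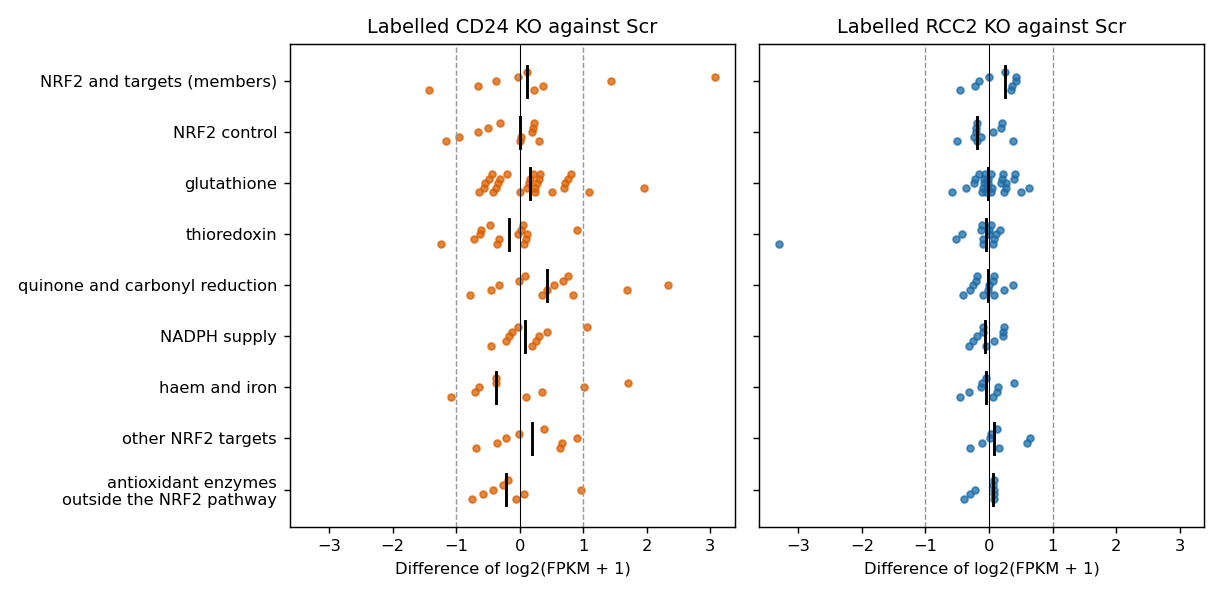
Difference of log2(FPKM + 1) from Scr for the 9 genes and for each of the 8 lists, in the libraries labelled CD24 KO (left) and RCC2 KO (right), 1 point per gene compared. Black bars are medians and dashed lines mark a 2-fold difference. The points spread more widely on the left, and TXNIP at -3.30 is the farthest point on the right.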

How the data were processed

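DU145 libraries were grouped by their titles. The authors deposited 1 table of FPKM values, with 1 column per condition, so replicate libraries could not be separated. The submitters' processing notes name HISAT, StringTie, Cufflinks and GATK without roles or versions; the genome build is not given in the sources used here. Only 15.5% of 25049 symbols overlapped their GRCh38.p14 position, and 0 of the 9 genes did, so table positions were read as hg19, with starts written from 1. The labels name a TruSeq RNA kit and the study's methods a stranded mRNA kit.

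Values were compared as log2(FPKM + 1) for genes that reached an FPKM of 1 in any of the 3 columns. A fit with limma and a replicate block had been planned for separate library columns and could not be made. A 2-fold minimum took its place, and no p-value was computed. Low values showed no steps of single fragments: among 2277 genes under 0.3 FPKM, the most frequent ratio between the RCC2 KO and Scr columns was held by 2.63%, so no depth was derived. The members and the 8 lists (109 genes, written from memory) were chosen with earlier results of these data known. Named from the lists were 15 genes fixed by symbol and genes at least 2-fold different in a comparison with a value of at least 5 FPKM. GPX2, RBX1, RBM17, ASB13, TRIM16 and TRIM16L were named after their values were seen. AKR1B1, AKR1B15 and AKR1C4 were also named outside these rules. Promoters came from RefSeq (GRCh38.p14) and transcripts from GENCODE 29. The calculations were tested on simulated data. Alternatives were other pseudocounts, filters, scalings and fold minimums. Python 3.11.15, NumPy 2.4.6, pandas 2.3.3 and matplotlib 3.10.9 were used. The values of some single genes of the lists are not reported here.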

Additional observations from a re-analysis of the deposited data

How the results depend on the processing

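No paired analysis was possible because the table holds 1 value per condition, and for the same reason no replicate could be left out. The count of the 9 genes at least 2-fold different from Scr in the libraries labelled CD24 KO, 3 genes, was 2 genes with a pseudocount of 5 or with at least 1 FPKM in every column, which drops AKR1B10, and 4 genes with a 1.5-fold minimum. In RCC2 KO it was 1 gene (AKR1B10, at 1.05) with a pseudocount of 0.1, in place of 0. Between the knockouts the count of 2 genes was 1 gene after quantile normalization, with a pseudocount of 5 or with the filter applied to every column, and 5 genes with a 1.5-fold minimum. The median log2 difference in CD24 KO was 0.31 after quantile normalization and -0.033 without AKR1C1 and AKR1B10. In RCC2 KO it was 0.12 with a pseudocount of 5, 0.12 with 1 FPKM required in every column and 0.0014 without AKR1C1 and AKR1B10. Between the knockouts it was 0.14 with at least 1 FPKM in every column, -0.30 after quantile normalization and 0.30 without AKR1C1 and AKR1B10, so its sign depended on the setting. Of 159 alternative values of single members, 138 stayed at 2-fold or more, or under 2-fold and within 0.1 of the reported value. A further 17 moved by 0.1 or more but stayed under 2-fold, 3 dropped below the 2-fold minimum and 1 came to reach it. AKR1B10 in CD24 KO was at 0.51 with a pseudocount of 5, and TFRC was at -0.89 after quantile normalization. That pseudocount also put NFE2L3 (-0.97), CHAC1 (0.85) and AKR1C2 (0.71) in CD24 KO below 2-fold. Between the knockouts it did so for AKR1B10 (-0.39), KEAP1 (0.69), CHAC1 (-0.87), GSTA4 (-0.92), AKR1C2 (-0.69), HMOX2 (0.89) and ABHD4 (-0.82). Of 552 alternative values of genes named by rule, members included, 14 dropped below 2-fold and 4 came to reach it. AKR1B10, AKR1C2 and GPX2 were under 1 FPKM in Scr, and since the depth is unknown these values have no interval.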

Other observations

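AKR1B10 also lies in a cluster of related genes, on chromosome 7. AKR1B1, the aldose reductase that turns glucose into sorbitol, was at 122 FPKM in Scr, 221 FPKM under the CD24 KO label and 128 FPKM under the RCC2 KO label, with log2 differences from Scr of 0.85 and 0.06. AKR1B15 was at 0.0316, 0.493 and 0.145 FPKM, below the minimum for comparison. All 3 genes of this cluster were highest in the libraries labelled CD24 KO, but AKR1B1 and AKR1B15 were named outside the rules for naming genes. Of the coding AKR1B10 stretches of 75 bases, 4.75% also occur in AKR1B15. Within 1 Mb, 7 other genes were compared, and their log2 differences of CD24 KO from Scr lay between -0.55 and 0.56.

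The genes whose pair of log2 differences from Scr lay nearest to that of AKR1C1, among 9376 genes with at least 5 FPKM in some column and above 0 in all, were MFAP5, NUPR1 and SFRP1, at distances of 0.097, 0.14 and 0.16 on the log2 scale. NUPR1, a stress-induced nuclear protein, was at 6.50 FPKM in Scr, 63.0 FPKM under the CD24 KO label and 9.67 FPKM under the RCC2 KO label. Only 1 gene lay within 0.1 of AKR1C1, whereas 50 genes lay within 0.1 of NQO1, with CAB39, RPL15 and TM2D2 as the nearest. Likeness was measured over 3 values per gene that share 1 Scr column.

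TRIM16 and TRIM16L, related genes on chromosome 17 and known NRF2 targets, were at 23.5 and 36.1 FPKM in Scr. They were at 37.0 and 57.7 FPKM under the CD24 KO label and at 36.0 and 57.0 FPKM under the RCC2 KO label. They were named after their values were seen.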
